A study of Homo sapiens with 4 samples.

Results

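In this comparison KYSE410 cells exposed to lipopolysaccharide (LPS) for 24 h were set against KYSE410 cells that received the vehicle, phosphate-buffered saline (PBS), for the same time. KYSE410 is an established human cell line of oesophageal squamous cell carcinoma, kept in RPMI 1640 medium with 10% fetal bovine serum, penicillin and streptomycin, and all groups share that line and medium. The comparison's members are 2 of the 4 arrays in the study, the array labelled LPS and the array labelled PBS, and 17185 named genes were followed on both. The other 2 arrays were from cells given tumour necrosis factor α (TNFα) or interleukin 1β (IL1β) for the same 24 h. They helped to choose each gene's probe set and to set the intensity floor defined below. Beyond that they were used only to mark differences that may come from a single array. The labels name no dose, and cells of 1 line were hybridised to 1 array per condition, so no value below has an error, a replicate check or a p-value. The study was set up to look for messenger RNAs that respond to inflammatory stimuli.

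LPS is a glycolipid that coats Gram-negative bacteria. It is handed by the binding protein LBP and by CD14 to a complex of the receptor TLR4 and its partner LY96 (MD-2). That complex signals through the adaptors MYD88 and TICAM1 (TRIF) and the IRAK kinases to the IκB kinases, which release NF-κB from its IκB inhibitors. NF-κB then drives genes of chemokines, cytokines and its own inhibitors, so that NFKBIA (IκBα) and TNFAIP3 (A20) serve as both targets and brakes. Epithelial cells of the oesophagus meet bacterial products at the surface, and in many epithelia TLR4 and LY96 are kept low.

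Promoters of 18 inflammatory genes higher with LPS were searched for the letters of the 10-letter NF-κB consensus. These were in 10 promoters and not in 8 (CXCL8, TNIP1, TNFAIP2, TNFAIP8, TRAF2, ICAM1, PTGS2 and PLAU). Sequences that depart from the consensus, and other starts of a gene, were not searched. A promoter counted as without the consensus may therefore still hold letters that NF-κB recognises. The sequences of 7 of the 10 are shown because the letters lie at nearly the same place in 3 neighbouring chemokine genes whose values differed in pattern over the 4 arrays, with CXCL8 as 1 of those without. They were picked for the match and give no share. Each line gives the 150 bases before the RefSeq gene start in GRCh38.p14, on the strand of the gene, with every match to the 10-letter NF-κB consensus, on either strand, in capitals.
CXCL1, chr4:73869243-73869392, + strand: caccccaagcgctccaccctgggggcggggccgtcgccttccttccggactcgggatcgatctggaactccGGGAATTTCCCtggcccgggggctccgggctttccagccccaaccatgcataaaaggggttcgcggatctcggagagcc
CXCL2, chr4:74099196-74099345, - strand: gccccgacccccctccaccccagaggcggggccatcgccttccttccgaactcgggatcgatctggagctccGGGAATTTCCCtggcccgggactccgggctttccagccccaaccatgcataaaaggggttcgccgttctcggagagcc
CXCL3, chr4:74038690-74038839, - strand: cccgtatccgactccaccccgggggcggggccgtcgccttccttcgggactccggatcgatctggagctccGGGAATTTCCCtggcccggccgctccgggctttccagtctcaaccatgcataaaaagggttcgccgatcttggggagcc
CCL20, chr2:227813692-227813841, + strand: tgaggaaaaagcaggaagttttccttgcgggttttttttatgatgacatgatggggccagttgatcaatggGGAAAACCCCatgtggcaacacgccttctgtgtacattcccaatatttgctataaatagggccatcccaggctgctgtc
IL6, chr7:22727050-22727199, + strand: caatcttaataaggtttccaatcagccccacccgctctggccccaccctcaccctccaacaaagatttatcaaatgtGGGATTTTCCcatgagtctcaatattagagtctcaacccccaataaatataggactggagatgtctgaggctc
NFKBIA, chr14:35404750-35404899, - strand: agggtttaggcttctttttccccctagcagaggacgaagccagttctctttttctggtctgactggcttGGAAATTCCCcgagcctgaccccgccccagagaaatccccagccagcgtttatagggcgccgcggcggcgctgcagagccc
TNFAIP3, chr6:137867109-137867258, + strand: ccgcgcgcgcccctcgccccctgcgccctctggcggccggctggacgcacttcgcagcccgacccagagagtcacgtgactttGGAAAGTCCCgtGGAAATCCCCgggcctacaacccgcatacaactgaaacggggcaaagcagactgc
CXCL8, chr4:73740419-73740568, + strand: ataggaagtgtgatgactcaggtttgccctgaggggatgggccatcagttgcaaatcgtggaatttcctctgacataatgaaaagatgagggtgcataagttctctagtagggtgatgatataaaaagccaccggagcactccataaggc

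In CXCL1, CXCL2 and CXCL3 the same 10 letters, GGGAATTTCC, began 79, 78 and 79 bases before the start, overlapped by a second match on the other strand that began 1 base later. NFKBIA held these letters on the other strand, 81 bases before its start. TNFAIP3 had 2 matches on the other strand, at 67 and 55 bases, CCL20 had 1 on the other strand at 79 bases and IL6 had 1 on its own strand at 73 bases. CXCL8 had none in its promoter window, which says only that the consensus letters are not there. Promoter windows of 250 bases before to 50 bases after the start were matched for 13780 of the 17185 genes. The consensus was present in 6.44% of all these windows, in 6.87% of windows of genes at the intensity floor defined below, in 8.82% (60 of 680) of windows of genes higher with LPS and in 6.7% (38 of 567) of windows of genes lower with LPS. Among measured CXC chemokine genes 7 of 12 windows held it, and among measured NF-κB pathway genes 7 of 22. These are descriptions of letters, and no binding was measured.

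Each of the 4 arrays gave an RMA intensity for 45033 probe sets, usually of 3 probes each (RMA subtracts background, makes the arrays' distributions alike and merges a set's probes into 1 value). Median intensities were 259.5 with PBS and 245 with LPS. A set of 5000 random-sequence probes read 54.1 with PBS and 56.4 with LPS, and a gene below 2 times that value on the same array is called near background. A gene was called higher or lower when its LPS and PBS values lay 2-fold or more apart and the larger one was at or above the floor, which is the median gene's mean log2 intensity of 8.02 (260.5 on the linear scale). A fold written "at least" was taken against that limit, because the smaller value lay under it. Intensities of different probe sets are not compared with each other. In RNA from a whole culture, fewer cells of a type and less RNA per cell cannot be told apart.

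On the LPS array 632 genes were at least 2-fold above, and 408 at least 2-fold below, each of the other 3 arrays. These counts take genes at any level, those near background included. For the PBS array the numbers were 127 below and 165 above each of the others, and for the cytokine arrays they were not counted. The labelled cell type was borne out by its markers, since all 19 oesophageal squamous markers reached the floor on both arrays. Their summed intensity was 191613 with PBS and 255091 with LPS, and 5 were higher and 2 lower, where 8.83% and 7.42% of all genes at the floor were. KRT5, a basal keratin, read 49361 with PBS and 59819.7 with LPS, and SOX2, a squamous lineage factor, 6942 with PBS and 5756 with LPS. Markers of heart muscle, which a squamous carcinoma line should lack, were read on the PBS and cytokine arrays and less on the LPS array. Of 25 heart muscle markers 16 reached the floor with PBS and 11 with LPS, 6 and 10 were near background, none read 0, and their summed intensity was 20182 with LPS against 52762 with PBS, 64657 with TNFα and 77216 with IL1β. MYH6, a cardiac myosin heavy chain, read 81.3 with LPS against 9469.8 with PBS, 14709 with TNFα and 17101 with IL1β. MYH7, its ventricular relative, whose sequence is close to that of MYH6, read 80.6 with LPS against 3673 with PBS, 4946 with TNFα and 4886 with IL1β. MYL3, a ventricular light chain, read 195 with LPS against 1630.4 with PBS, 2412 with TNFα and 1978 with IL1β. All 3 were high on the PBS and both cytokine arrays and low on the LPS array alone. Some other members did not follow them, with MYL7 at 562 with LPS against 439 with PBS and NKX2-5 at 612 with LPS against 560 with PBS. MYL2, at 114 with LPS and 131 with PBS, was below the floor on both, and ACTN2 and NPPA were near background on both. Actins of muscle were bright everywhere, with ACTC1, cardiac α actin, at 12945 with LPS against 17961 with PBS, 21145 with TNFα and 28777 with IL1β. Of the 25 markers 9 were lower and none higher, with a median log2 difference of -0.70 against 0.02 for all 17185 genes.

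Blood cell markers were also lower in sum on the LPS array. In the myeloid list the difference from PBS was mostly through LYZ. The 25 myeloid markers summed to 4208 with LPS against 11445 with PBS, 19651 with TNFα and 18437 with IL1β, with 2 higher and 4 lower (median -0.69), and 10 were near background with PBS and 16 with LPS. Without LYZ they summed to 4528 with PBS and 3998 with LPS, but to 14051 with TNFα and 8047 with IL1β. Other members were thus brighter on the cytokine arrays, such as FCGR3A, an Fc receptor. It read 84.8 with LPS against 212 with PBS, 2906 with TNFα and 730 with IL1β. LYZ, lysozyme, read 209 with LPS against 6917 with PBS, 5600.2 with TNFα and 10389.6 with IL1β, and TYROBP, an adaptor of myeloid receptors, 82.3 with LPS against 801 with PBS, 838 with TNFα and 1048 with IL1β. The list did not move as one, since AIF1, a macrophage calcium-binding protein, read 185 with PBS and 1386 with LPS, and FCN1, a monocyte lectin, 118 with PBS and 439.6 with LPS, with PBS the lowest array in both. The 22 measured lymphocyte markers summed to 4400.2 with PBS and 2993 with LPS, with 1 higher and 4 lower, and the 17 erythroid and platelet markers to 5600.0 and 3176, with none higher and 4 lower. Fibroblast markers summed to 5926 and 5405, endothelial markers to 2449 and 2365, and hepatocyte markers to 1976.5 and 1848. Skeletal and smooth muscle markers summed to 23137 and 21832, and neuronal and germ cell markers to 2701 and 1760.1. Leaving out the gene with the largest difference turned the order of 3 of these sums: neuronal and germ cell markers without PRM2 summed to 1411 with PBS and 1487 with LPS, endothelial markers without PECAM1 to 2030.5 with PBS and 2291 with LPS and hepatocyte markers without their own such gene to 1585 with PBS and 1791 with LPS. Fibroblast markers without FBLN1 summed to 4261 with PBS and 2506 with LPS. These values move with the comparison of LPS and PBS, and their part in the other differences was not tested. Without the genes of these 9 lists the counts below were 850 higher and 690 lower.

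**Figure D1:**
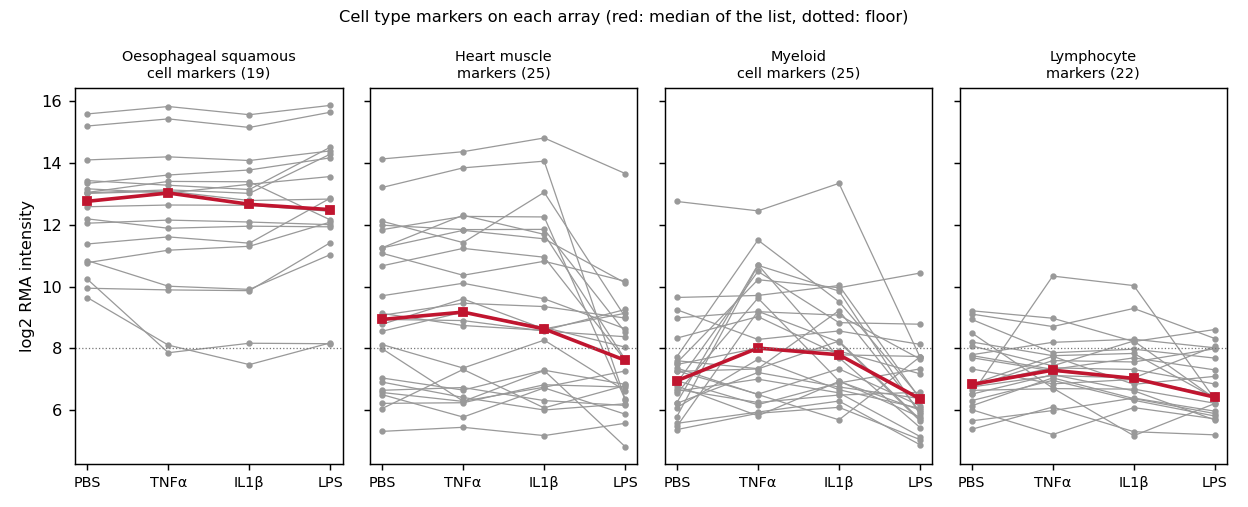
Log2 RMA intensity (vertical axis) of each measured marker gene on the PBS, TNFα, IL1β and LPS arrays (horizontal axis), in 4 panels of 19 squamous, 25 heart muscle, 25 myeloid and 22 lymphocyte markers. Grey points and lines are single genes, the red squares are the median of the list and the dotted line is the floor of 8.02; the squamous markers stay above the floor with LPS while several heart muscle and myeloid genes drop below it.

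Between LPS and PBS 854 genes were higher and 718 lower, which is 8.83% and 7.42% of the 9675 genes that reached the floor on either array, and 4.97% and 4.18% of all genes measured. List counts below are out of measured members unless said otherwise, so 4.97% and 4.18% are the shares to set beside them. By measured intensities, differences of at least 4-fold were seen for 172 genes upward and 95 downward, and at least 8-fold for 38 and 19. Called genes were more frequent at low levels. When genes at the floor were divided into 4 equal groups by mean level, the lowest group held 372 of the higher and 351 of the lower genes, and the highest held 116 and 92. The SD of the log2 difference over genes was 1.05 in the lowest group and 0.63 in the highest. A second probe set, the only repeat measurement within an array, reached the floor for 88 called genes. It had the same direction in 72 and was at least 2-fold different the same way in 36. Over all 700 genes at the floor with such a set, the log2 differences of the pair disagreed with an SD of 0.76, nearly as wide as the SD of 0.80 of the LPS minus PBS difference itself, and 15836 genes had 1 probe set only.

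The cytokine arrays share the PBS array as their control, so beyond the probe set choice and the floor they are used here only to mark differences. A difference is marked PBS-side where the TNFα and IL1β arrays both differed from PBS at least 2-fold in the direction of LPS. It is marked LPS-side where LPS differed at least 2-fold from both cytokine arrays as well as from PBS. Of the 854 higher genes 93 (10.9%) were PBS-side and may owe part of their difference to the single PBS array, 13 of them being LPS-side too, and 402 (47.1%) were LPS-side only. Of the 718 lower genes 108 (15%) were PBS-side and 253 (35.2%) LPS-side only. A response shared by LPS, TNFα and IL1β would also give a PBS-side mark, and the PBS array and such a response cannot be told apart here. An LPS-side mark leaves the single LPS array as a possible source, which cannot be told apart from the treatment here.

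**Figure D2:**
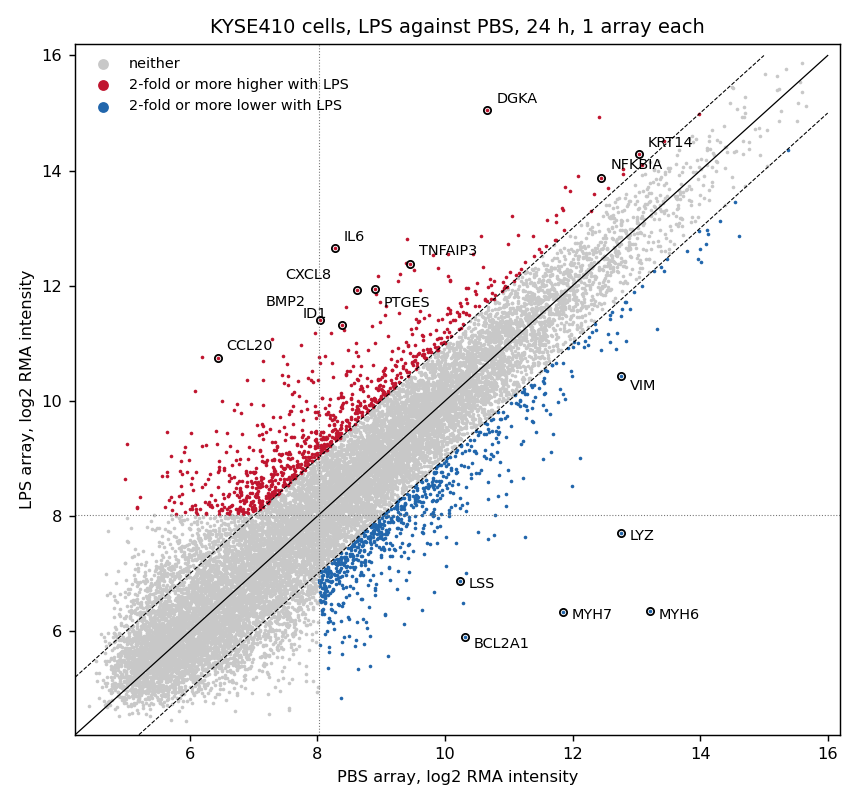
Log2 RMA intensity on the LPS array (vertical axis) against the PBS array (horizontal axis) for 17185 genes, 1 point a gene. Red points are the 854 genes called higher, blue points the 718 called lower and grey points neither, with the solid line at equality, dashed lines at 2-fold and dotted lines at the floor of 8.02; CCL20 and IL6 lie far above the line and MYH6, MYH7 and LYZ far below it.

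Of 30 measured members of the LPS recognition and Toll-like receptor list 15 reached the floor, 2 were higher and none lower, with a median log2 difference of 0.18. Of all genes at the floor 8.83% were higher and 7.42% lower, and counts this small do not set the list apart. TLR4, the LPS receptor, read 83.8 with LPS against 82.2 with PBS, 413 with TNFα and 66 with IL1β, and its partner LY96 read 71.9 with LPS against 43.8 with PBS, 49.2 with TNFα and 65.4 with IL1β, both near background with PBS and with LPS. The 3 probe sets of TLR4 did not share a direction. CD14, the co-receptor, read 211 with LPS against 164 with PBS, 90.6 with TNFα and 51.4 with IL1β, below the floor on each array, and LBP was near background with PBS and LPS at 38.6 with PBS and 52.6 with LPS. The adaptor MYD88 read 776 with PBS and 433 with LPS, a log2 difference of -0.84, and TICAM1 639 with PBS and 641 with LPS. IRAK1, a kinase downstream of MYD88, was 2.92-fold higher and PBS-side (8941 with TNFα and 8685 with IL1β, against 3089 with PBS and 9025 with LPS). MAP3K8, a kinase of the ERK branch, was at least 2.52-fold higher, at 108 with PBS and 272 with LPS. CASP4, an intracellular LPS sensor, read 1071 with PBS and 1316 with LPS and stayed within 2-fold, as did NOD1, NOD2, RIPK2 and TRAF3.

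Several feedback genes of NF-κB were higher with LPS, and its subunits were mostly within 2-fold. Of 25 measured members 22 reached the floor, 7 were higher and 1 lower, and the list's median was 0.09. TNFAIP3, the deubiquitinating brake A20, read 5316 with LPS against 703 with PBS, 773 with TNFα and 763 with IL1β, 7.56-fold higher than PBS. TNFAIP2, a TNF-induced protein of the exocyst family, read 4719 with LPS against 629.6 with PBS, 683 with TNFα and 562 with IL1β, and NFKBIA read 14970.3 with LPS against 5607 with PBS, 4463 with TNFα and 4879.6 with IL1β. The PBS and both cytokine arrays lay close together for all 3 genes, and the LPS array lay above them. NFKBIE (IκBε) was 2.02-fold higher, just past the threshold. NFKBIZ, an inducible nuclear IκB, stayed below the floor at 60 with PBS and 167 with LPS, and near background with PBS. TNIP1, an A20-binding protein, TNFAIP8 and the adaptor TRAF2 were also higher, by 3.03-fold, 2.81-fold and 3.11-fold, and all 3 were PBS-side. Among subunits, NFKB1 had a log2 difference of 0.81, REL of 0.59, NFKB2 of 0.06 and RELB of -0.15, none reaching 2-fold. RELA, the p65 subunit, was the 1 lower member, at 2860.3 with LPS against 6896 with PBS, 5946 with TNFα and 5703 with IL1β, 2.41-fold lower than PBS. The IκB kinase genes CHUK (-0.35), IKBKB (-0.64), IKBKG (0.09) and IKBKE (-0.05) did not reach 2-fold.

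Neutrophil-attracting chemokines were higher with LPS in 2 patterns. Of 12 measured CXC chemokines 5 reached the floor, and 4 of those were higher and none lower. CXCL2 and CXCL3 reached it on the LPS array and not on the PBS array, and the median over all 12 was 0.31. CXCL1 read 1467 with LPS against 525 with PBS, 427 with TNFα and 449 with IL1β, and CXCL3 read 609 with LPS against 86 with PBS, 80.4 with TNFα and 87.5 with IL1β. Both were raised on the LPS array alone, by 2.8-fold and at least 5.62-fold. CXCL2 read 2311 with LPS against 249 with PBS, 2215 with TNFα and 1746 with IL1β, and CXCL8, interleukin 8, read 3889 with LPS against 394 with PBS, 4547 with TNFα and 2051 with IL1β. These were low on the PBS array alone, so that their 9.27-fold and 9.86-fold differences are PBS-side. CXCL1, CXCL2 and CXCL3, which share the 10 letters shown above, thus did not share a pattern over the arrays; their transcripts are close in sequence, and cross-hybridisation was not tested. CXCL5 read 761 with PBS and 1041 with LPS, within 2-fold. The interferon-induced CXCL10 was near background on both arrays at 74.1 with PBS and 86.1 with LPS, as were CXCL9 and CXCL11.

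Of 15 measured CC and other chemokines 3 were higher and none lower (all genes measured: 4.97% and 4.18%), with a median over the 15 of -0.04. These 3 were the only members at the floor with PBS or LPS, and reached it with LPS and not with PBS. Genes that pass the floor in that way cannot be called lower, so the lack of lower members says little. CCL20, which draws dendritic cells and T cells to epithelia, read 1724 with LPS against 86.4 with PBS, 71.4 with TNFα and 59.6 with IL1β, at least 15.9-fold higher than PBS and LPS-side. CCL5 read 966 with LPS against 196 with PBS, 1195 with TNFα and 1118 with IL1β and CCL3 read 678 with LPS against 136 with PBS, 862 with TNFα and 466 with IL1β, both PBS-side. CCL2, the monocyte chemokine MCP-1, was below the floor at 62 with PBS and 136 with LPS.

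IL6 read 6426 with LPS against 308 with PBS, 1886 with TNFα and 1427 with IL1β, was 20.9-fold higher than PBS, and carried both marks, since the cytokine arrays lay between PBS and LPS. Of 19 genes of the IL6 family and its STAT3 signalling 3 were higher and 4 lower, with a median of 0.23. PIM1, a STAT3-induced kinase, read 2672 with LPS against 775 with PBS, 734 with TNFα and 726 with IL1β and was LPS-side. BCL6, a repressor, was at least 3.02-fold higher. The shared receptor subunit IL6ST (gp130) was 2.05-fold lower, the ligand CTF1 2.14-fold lower, and the inhibitors SOCS3 and PIAS3 4.16-fold and 2.47-fold lower, the last pair being PBS-side. In the IL1 family 2 of 15 members were higher and 1 lower, with only 4 at the floor. IL18, an epithelial cytokine activated by caspase 1, read 3072 with LPS against 1084 with PBS, 1253 with TNFα and 1079 with IL1β and was LPS-side. IL1B read 904 with LPS against 213 with PBS, 691 with TNFα and 759.7 with IL1β and the receptor antagonist IL1RN 358 with LPS against 802 with PBS, 206 with TNFα and 197 with IL1β, both PBS-side. IL1A was near background on both arrays (65.5 with PBS and 27 with LPS). Of 26 other cytokines and colony stimulating factors 7 reached the floor and 1, IL32, was higher (2.79-fold, PBS-side), while TNF itself read 199 with PBS and 306 with LPS, a log2 difference of 0.62.

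Genes at successive steps of prostaglandin E2 synthesis were higher. The cyclooxygenases PTGS1 and PTGS2 make prostaglandin H2, PTGES turns it into prostaglandin E2, and SLCO2A1 carries prostaglandins into cells. PTGES read 3941 with LPS against 478 with PBS, 511 with TNFα and 449 with IL1β, 8.25-fold higher than PBS. PTGS2, the inducible cyclooxygenase, read 434 with LPS against 62 with PBS, 113 with TNFα and 113 with IL1β, and PTGS1 read 594 with LPS against 99.3 with PBS, 199 with TNFα and 132 with IL1β. For each of the 3 the LPS array was at least 2-fold above every other array, and PTGS1 and PTGS2 reached the floor there alone. SLCO2A1 just reached the floor at 54.8 with PBS and 261 with LPS and did not with an offset added before log2. Of 24 measured prostanoid and leukotriene genes 13 reached the floor, 5 were higher and 1 lower, with a median of 0.00. The lower one, ALOX5AP, which serves leukotriene synthesis in myeloid cells, read 90.2 with LPS against 1244 with PBS, 917 with TNFα and 1767 with IL1β, the pattern seen for LYZ and TYROBP.

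**Figure D3:**
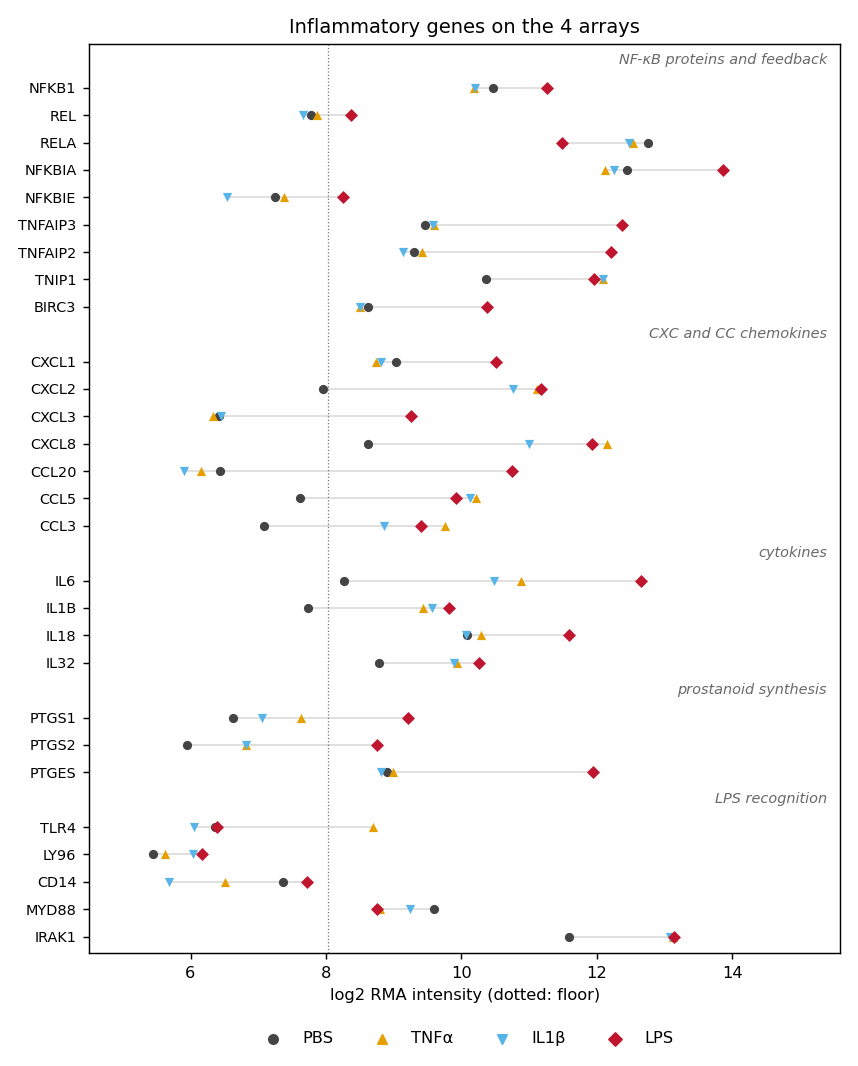
Log2 RMA intensity (horizontal axis) of 28 inflammatory genes (vertical axis, grouped by role) on the PBS (circle), TNFα (upward triangle), IL1β (downward triangle) and LPS (diamond) arrays, with the floor of 8.02 dotted. TNFAIP3, NFKBIA, CXCL1, CXCL3, CCL20 and PTGES are high on the LPS array alone, whereas CXCL2, CXCL8, CCL5 and TNIP1 are low on the PBS array alone.

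Of 34 measured interferon-stimulated genes 25 reached the floor, 7 were higher and 1 lower (all genes measured: 4.97% and 4.18%). The median was 0.40. Most of the higher ones were PBS-side, 6 of the 7. These were IRF1, a transcription factor (4.79-fold), GBP2, a guanylate-binding GTPase (at least 4.03-fold), IFIT3 (3.97-fold), IFIT2 (3.57-fold), the DNA sensor IFI16 (3.31-fold) and IFI6 (2.13-fold). BST2, which tethers virus particles to the cell surface, was the exception, at 2513 with LPS against 462 with PBS, 528 with TNFα and 436 with IL1β. STAT2, a subunit of the interferon-activated factor ISGF3, was lower on the LPS array at 263 with LPS against 885 with PBS, 741 with TNFα and 837 with IL1β. Among 27 antigen presentation genes 3 were higher and none lower, with a median of 0.13. TAP1, the peptide transporter, read 5369 with LPS against 666 with PBS, 2596 with TNFα and 2877 with IL1β and was PBS-side, like the immunoproteasome subunit PSMB8 (2.1-fold), which missed 2-fold when its probe sets were averaged. NLRC5, a transactivator of class I genes, was 2.53-fold higher, with no mark.

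Complement genes were among the lists with the highest share of higher members. Of 21 measured 6 were higher and 1 lower (all genes measured: 4.97% and 4.18%), with a median of 0.55. CD55, which speeds the decay of complement convertases on host cells, read 2324 with LPS against 297 with PBS, 436 with TNFα and 186 with IL1β, and C3, the central complement protein, read 1019 with LPS against 227 with PBS, 118 with TNFα and 287 with IL1β. CD46, a cofactor for cleavage of C3b, was 2.32-fold higher and CFP, properdin, 2.84-fold higher. In these 4 genes the LPS array was at least 2-fold above every other array. C1R and C4B were 2.66-fold and 3.12-fold higher and PBS-side. The 1 lower member, the C1 inhibitor SERPING1 (3.48-fold), was PBS-side too. C4B cannot be separated here from its near-identical neighbouring copy. Among 24 adhesion and checkpoint proteins 6 were higher and 1 lower (median 0.39). ICAM1, which binds leukocyte integrins, read 1276 with LPS against 178 with PBS, 405 with TNFα and 533 with IL1β and carried both marks. PDCD1LG2 (PD-L2) was 2.64-fold higher and LPS-side, and CD83 2.74-fold higher with no mark. ALCAM, an activated leukocyte adhesion molecule, was 10.1-fold higher and PBS-side.

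Of 27 measured antimicrobial and antiprotease genes 5 were higher and 1, LYZ, lower, with 7 near background on all arrays and a median of 0.38. SLPI, an inhibitor of neutrophil elastase, read 1356 with LPS against 232 with PBS, 169 with TNFα and 224 with IL1β, and PI3 (elafin), another elastase inhibitor, read 1401 with LPS against 348 with PBS, 498 with TNFα and 462 with IL1β. Both were LPS-side. SERPINB1, which inhibits neutrophil proteases inside cells, was 2.08-fold higher, and fell below 2-fold after loess centring. SERPINA1, the main elastase inhibitor of plasma, read 187 with PBS and 157 with LPS, below the floor. PTX3 and PGLYRP1, which bind microbes, were 4.28-fold and 3.2-fold higher and PBS-side.

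Matrix-degrading enzymes and their inhibitors had 8 of 26 measured members higher and 3 lower, with a median of 0.89. MMP13 (collagenase 3) read 1474 with LPS against 364 with PBS, 372 with TNFα and 349.9 with IL1β and was LPS-side. TIMP1, an inhibitor of these enzymes, read 1174 with LPS against 496 with PBS, 252 with TNFα and 312 with IL1β, and TIMP3 read 416 with LPS against 50.1 with PBS, 97.1 with TNFα and 42.2 with IL1β. Both inhibitors were highest on the LPS array, whereas TIMP2 was 5.22-fold lower and PBS-side. MMP3 (7.98-fold), MMP14 (5.53-fold), ADAM15 (5.65-fold) and the TNF-releasing protease ADAM17 (4.03-fold) were higher and PBS-side. For MMP3 the cytokine arrays read 2055 with TNFα and 802 with IL1β, against 124 with PBS and 988 with LPS. MMP2 and ADAM10 were each 2.09-fold lower.

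Urokinase and its receptor were higher with LPS. PLAU, urokinase, read 1322 with LPS against 239 with PBS, 281 with TNFα and 283 with IL1β, and its receptor PLAUR read 1528 with LPS against 649.6 with PBS, 455 with TNFα and 510.4 with IL1β, with all 3 probe sets in the same direction. Both were LPS-side. Of 28 measured genes of plasminogen activation, kallikreins and serine proteases 7 were higher and 1 lower, with a median of 0.15. Kallikreins of squamous epithelium went both ways, with KLK10 at least 5.21-fold higher and KLK6 3.81-fold lower. The kallikrein inhibitor SPINK5 was 3.64-fold higher, and the coagulation inhibitor TFPI at least 2.56-fold higher. In the extracellular matrix list 3 of 30 members were higher and 4 lower (median 0.10, all genes measured: 4.97% and 4.18%). COL5A1 (7.93-fold), COL12A1 (3.18-fold) and the collagen cross-linker LOXL2 (2.44-fold) were higher and LPS-side. COL1A2 (3.11-fold), BGN (3.37-fold), TNC (3.79-fold) and CCN2 (at least 2.45-fold) were lower, with TNC PBS-side.

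Integrins and laminins had 4 of 23 members higher and 2 lower (all genes measured: 4.97% and 4.18%), with a median of 0.40. ITGB1, the common β1 subunit, read 4330.1 with LPS against 616 with PBS, 4252 with TNFα and 3486 with IL1β and was PBS-side, as were the lower ITGA6 (2.76-fold) and ITGB2 (3.32-fold). ITGB8, which activates transforming growth factor β, was 2.36-fold higher and LPS-side.

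Among cell junction genes more were lower than higher. Of 30 measured members 24 reached the floor, 1 was higher and 6 lower, with a median of -0.06. CTNNB1, β-catenin, which links cadherins to actin and carries WNT signals, read 803 with LPS against 2641 with PBS, 2862 with TNFα and 2449.5 with IL1β. DSG2, a desmosomal cadherin, read 1209 with LPS against 2640.4 with PBS, 2781 with TNFα and 2811 with IL1β, and both were low on the LPS array alone. TJP1 (ZO-1) was 2.4-fold lower and the tight junction protein CLDN4 2.24-fold lower, with no mark. CDH1, E-cadherin, was 4.26-fold lower and GJB6, a connexin, 10-fold lower, both PBS-side. The connexin GJB2 was the 1 higher member (2.32-fold). In the epithelial-mesenchymal transition list 3 of 18 were higher and 2 lower (median -0.10). SNAI1 (6.69-fold), CDH2 (4.53-fold) and TWIST1 (4.05-fold) were higher and all PBS-side. VIM, vimentin, the intermediate filament of mesenchymal cells, read 1389 with LPS against 6935 with PBS, 3298 with TNFα and 7326 with IL1β and was lowest on the LPS array. VIM is also abundant in leukocytes and fibroblasts, whose markers are given above. GRHL2, an epithelial transcription factor, was 2.04-fold lower.

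Squamous differentiation genes that were called were all higher. Of 34 measured cornified envelope and squamous differentiation genes 24 reached the floor, 9 were higher and none lower, with a median of 0.39 and no PBS-side member. CSTA, a protease inhibitor that is cross-linked into the cornified envelope, read 6002 with LPS against 1386 with PBS, 1928 with TNFα and 1564 with IL1β. SPRR1B, a small proline-rich envelope protein, read 2897 with LPS against 862 with PBS, 703 with TNFα and 1135 with IL1β, and its relative SPRR1A 376 with LPS against 75.1 with PBS, 115 with TNFα and 60.2 with IL1β. CSTA and both SPRR1 genes were LPS-side. S100A14 was 2.73-fold higher, S100A2 2.49-fold and the ammonium transporter RHCG 3.35-fold. SULT2B1, a cholesterol sulfotransferase, was 2.54-fold higher but not when its 2 probe sets were averaged. Keratins had 4 of 24 members higher and 2 lower (median 0.23). KRT14, the basal partner of KRT5, read 20039 with LPS against 8406 with PBS, 8978 with TNFα and 8297 with IL1β, KRT17, a keratin of activated epithelium, 23425 with LPS against 11052 with PBS, 9953 with TNFα and 9044 with IL1β, and KRT7 12341 with LPS against 5172 with PBS, 5241 with TNFα and 5781 with IL1β. KRT4, a keratin of differentiated oesophagus, read 2761 with LPS against 745 with PBS, 1089 with TNFα and 996 with IL1β. All 4 were LPS-side, while KRT80 and KRT81 were lower (2.2-fold and 2.01-fold) and PBS-side. The related keratins KRT5 and KRT6A had log2 differences of 0.28 and 0.45.

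Among 33 squamous lineage and Krüppel-like factors 4 were higher and 1 lower (median 0.29). TP63, which sets squamous identity, read 2747 with LPS against 986 with PBS, 949 with TNFα and 933 with IL1β, KLF4, which promotes differentiation of surface cells, 2420.0 with LPS against 709 with PBS, 819 with TNFα and 839 with IL1β, and the Notch ligand JAG1 943 with LPS against 278 with PBS, 195 with TNFα and 167 with IL1β. These 3 were raised on the LPS array alone. KLF10, induced by transforming growth factor β, was 2.69-fold lower.

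**Figure D4:**
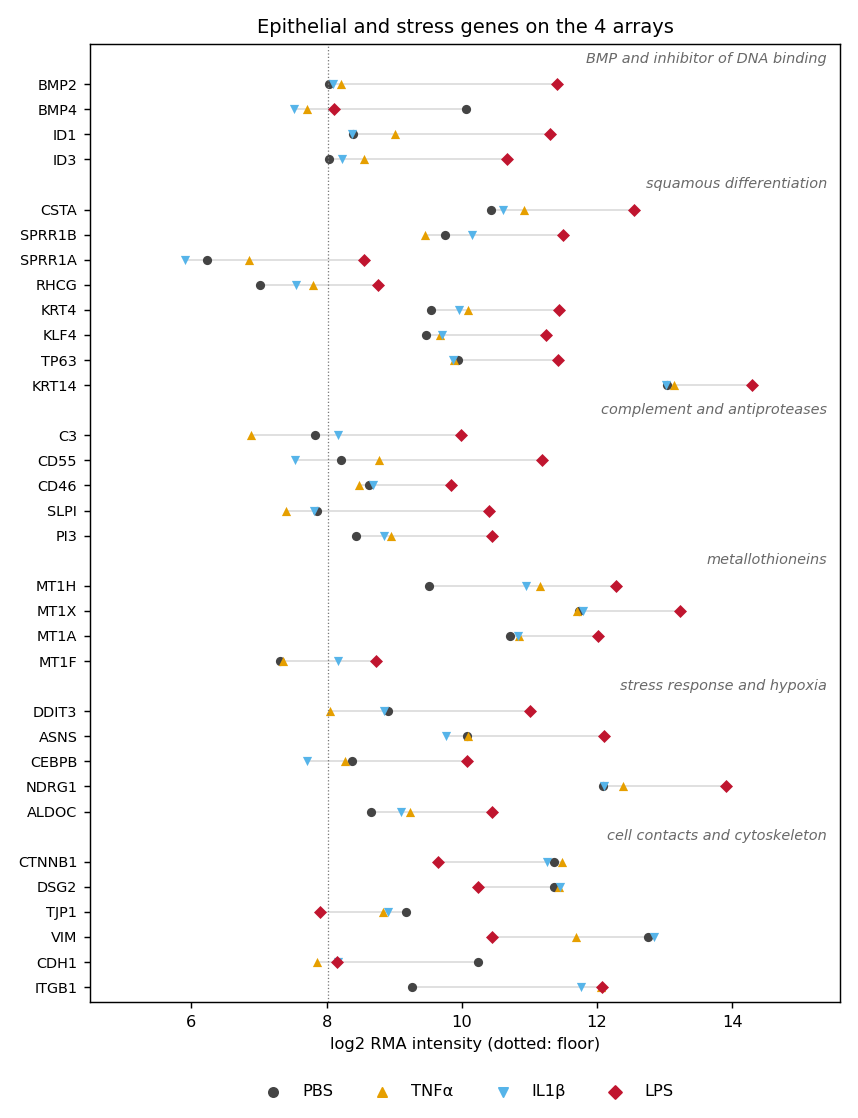
Log2 RMA intensity (horizontal axis) of 32 epithelial and stress genes (vertical axis, grouped by role) on the PBS (circle), TNFα (upward triangle), IL1β (downward triangle) and LPS (diamond) arrays, with the floor of 8.02 dotted. BMP2, ID1, CSTA, TP63, KRT14, CD55, SLPI and DDIT3 are highest on the LPS array and CTNNB1 and DSG2 lowest there, while BMP4, CDH1 and ITGB1 stand apart on the PBS array.

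BMP2 and 2 targets of BMP signalling, ID1 and ID3, were higher on the LPS array. BMP2, a bone morphogenetic protein, read 2704 with LPS against 262 with PBS, 298 with TNFα and 272 with IL1β, 10.3-fold higher than PBS. ID1 and ID3, inhibitors of DNA binding and textbook targets of BMP receptors, read 2541 with LPS against 335 with PBS, 517 with TNFα and 333 with IL1β, and 1621 with LPS against 263 with PBS, 376 with TNFα and 298 with IL1β. In all 3 genes the LPS array was at least 2-fold above each other array, and both probe sets of ID1 pointed the same way. The list had 5 of 34 members higher and 2 lower (all genes measured: 4.97% and 4.18%), with a median of 0.28. FST, follistatin, which binds activins, was 2.73-fold higher, and BMP4 (3.86-fold) and INHBB (2.24-fold) were lower and PBS-side. BMP1, a procollagen protease despite its name, was 2.42-fold higher in 1 of its 2 probe sets, and their mean differed by 0.44.

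Several vascular growth factors were also higher. Of 28 angiogenic and fibroblast growth factor genes 6 were higher and 2 lower (all genes measured: 4.97% and 4.18%). The median was 0.04, and -0.16 over the 17 at the floor. ADM, adrenomedullin, read 8777 with LPS against 3414 with PBS, 3009.9 with TNFα and 3162 with IL1β and VEGFB 931 with LPS against 374 with PBS, 449 with TNFα and 381 with IL1β, both LPS-side. VEGFA was 2.1-fold higher with no mark, and VEGFC (3.56-fold) and the ephrin EFNA1 (5.33-fold) were PBS-side. The ephrin receptor EPHB4 was 2.1-fold lower. In the WNT list 1 of 29 was higher and 2 lower (median -0.10), shares near the 4.97% and 4.18% of all genes measured. WNT5A, a ligand of the branch that does not need β-catenin, read 499 with LPS against 88.2 with PBS, 82.5 with TNFα and 73.1 with IL1β. AXIN2, a target and inhibitor of WNT signalling, was 6.92-fold lower and PBS-side, and the WNT effector TCF7 at least 2.93-fold lower. Among EGF receptor genes and ligands 1 of 16 was higher, the feedback inhibitor ERRFI1 (2.56-fold), and 1 lower, the receptor ERBB3 (2.19-fold).

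Immediate early genes differed little at 24 h. Of 22 members at the floor 2 were higher and 2 lower, shares near those of all genes, with a median over the 26 measured of 0.29. FOS read 432 with LPS against 128 with PBS, 213 with TNFα and 247 with IL1β and JUNB 684 with LPS against 318 with PBS, 487 with TNFα and 645 with IL1β, with PBS the lowest array in both. FOSL1 and BATF were 2.23-fold and 2.12-fold lower. The MAP kinase phosphatase DUSP1 read 902 with LPS against 190.0 with PBS, 377 with TNFα and 374 with IL1β and was LPS-side, while the ERK inhibitors SPRY4 and SPRED2 were 4.64-fold and 2.19-fold lower, SPRY4 being PBS-side.

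Several metallothioneins, which bind zinc and copper, were higher. Of 20 metallothionein and metal handling genes 4 were higher and none lower, with a median of 0.46, and all 4 were metallothioneins. MT1X read 9603 with LPS against 3413 with PBS, 3332 with TNFα and 3561 with IL1β and MT1A 4119.6 with LPS against 1684 with PBS, 1839 with TNFα and 1812 with IL1β, both high on the LPS array alone. MT1H read 4964 with LPS against 731 with PBS, 2284 with TNFα and 1971 with IL1β and MT1F 159 with PBS and 423 with LPS. These genes are near-copies of one another, and cross-hybridisation between them was not tested.

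Of 29 genes of the unfolded protein and integrated stress response 5 were higher and 1 lower (all genes measured: 4.97% and 4.18%). The median was 0.05. DDIT3 (CHOP), a transcription factor of prolonged stress, read 2065 with LPS against 481 with PBS, 265 with TNFα and 461 with IL1β, and ASNS, asparagine synthetase, 4389.7 with LPS against 1077 with PBS, 1089.5 with TNFα and 874 with IL1β. CEBPB (3.24-fold), the chaperone cofactor SDF2L1 (3.4-fold) and PSAT1 of serine synthesis (2.11-fold) were also higher, and all 5 were LPS-side. DNAJC3, a co-chaperone, was 2.23-fold lower. Of 18 heat shock genes none was higher and 3 were lower (median 0.01), CRYAB at 130.3 with LPS against 695 with PBS, 890.2 with TNFα and 855 with IL1β, HSPA6 by 2.37-fold and BAG3 by 2.02-fold. CRYAB is abundant in heart muscle. The amino acid transporter SLC7A5 was 2.36-fold higher, the only higher one of 22 amino acid transporter and tRNA synthetase genes, and SLC38A5 (3.38-fold) and SLC43A1 (3.24-fold) were lower and PBS-side.

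Hypoxia response and glycolysis genes had 7 of 34 members higher and none lower, with a median of 0.08. NDRG1, induced by low oxygen, read 15341 with LPS against 4333 with PBS, 5351 with TNFα and 4406 with IL1β, and the glycolytic aldolase ALDOC 1394 with LPS against 405 with PBS, 600.1 with TNFα and 548 with IL1β. The lactate exporter SLC16A3 was 2.28-fold higher, the carbonic anhydrase CA12 at least 3.31-fold and EPAS1 (HIF-2α) 2.77-fold. These 5 were LPS-side, and HIF1A (6.56-fold) was PBS-side. NRF2 targets and antioxidant enzymes had 4 of 37 higher and 2 lower, with 34 at the floor and a median of 0.33. With 8.83% of all genes at the floor higher and 7.42% lower, counts this small do not set the list apart. GCLC, the first enzyme of glutathione synthesis (2.76-fold), and thioredoxin reductase TXNRD1 (2.21-fold) were higher and LPS-side, and haem oxygenase HMOX1 2.74-fold higher. Glutathione reductase GSR (3.32-fold) and GPX2 (2.62-fold) were lower. SOD2 read 1640.1 with PBS and 2203 with LPS, within 2-fold.

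Among sterol and fatty acid synthesis genes 1 of 29 was higher and 5 were lower, with a median of -0.35. LSS, lanosterol synthase, read 117 with LPS against 1204 with PBS, 1309 with TNFα and 1382 with IL1β, with both probe sets in the same direction. INSIG1, a sterol sensor, read 141 with LPS against 430.4 with PBS, 359 with TNFα and 418 with IL1β, and ACLY, which makes cytosolic acetyl-CoA, 3095 with LPS against 7021 with PBS, 7211 with TNFα and 8371 with IL1β. These 3 were low on the LPS array alone. HMGCS1 (2.12-fold) and the desaturase SCD (2.08-fold) were lower, and MSMO1, another enzyme of the same route, was 2.51-fold higher. In the lipid droplet and fatty acid oxidation list CPT1A, which admits fatty acids to mitochondria, was the only called gene of 23, 3.54-fold lower.

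Apoptosis and survival genes were mostly within 2-fold. Of 28 measured members 24 reached the floor, and 21 of those were neither higher nor lower. With 1 higher and 2 lower the shares were near or under the 8.83% and 7.42% of all genes at the floor, and the median was -0.27. BIRC3 (cIAP2), an NF-κB target, read 1337 with LPS against 394 with PBS, 364 with TNFα and 362 with IL1β. CFLAR, which restrains caspase 8, read 102 with LPS against 277 with PBS, 515 with TNFα and 356 with IL1β, and BCL2A1, an anti-apoptotic NF-κB target also abundant in myeloid cells, 59.3 with LPS against 1272 with PBS, 4141 with TNFα and 4566 with IL1β. BIRC3 was high, and the other two low, on the LPS array alone.

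Cell division genes were mostly within 2-fold, as were genes at the floor in general, of which 8.83% were higher and 7.42% lower. MKI67, a protein of dividing cells, read 527 with LPS against 1719.7 with PBS, 1697 with TNFα and 1668 with IL1β, 3.26-fold lower with LPS, and the securin PTTG1 was 2.24-fold higher, the only called genes of 30 in the mitosis list (median -0.05). In the G1 to S phase list RRM2 of nucleotide synthesis was 2.55-fold lower and E2F1 2.34-fold higher, of 31 measured (median 0.09). None of 18 housekeeping genes (median -0.15) and none of 30 proteasome subunits (median 0.12) was called. Of 32 ribosomal protein genes 2 were higher and 1 lower (median 0.24), and of 31 genes of oxidative phosphorylation 3 were higher and none lower (median 0.48), NDUFA2 (2.98-fold), NDUFA1 (2.91-fold) and COX6C (2.4-fold). These were reference lists, and the last median was larger than those of several inflammatory lists.

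**Figure D5:**
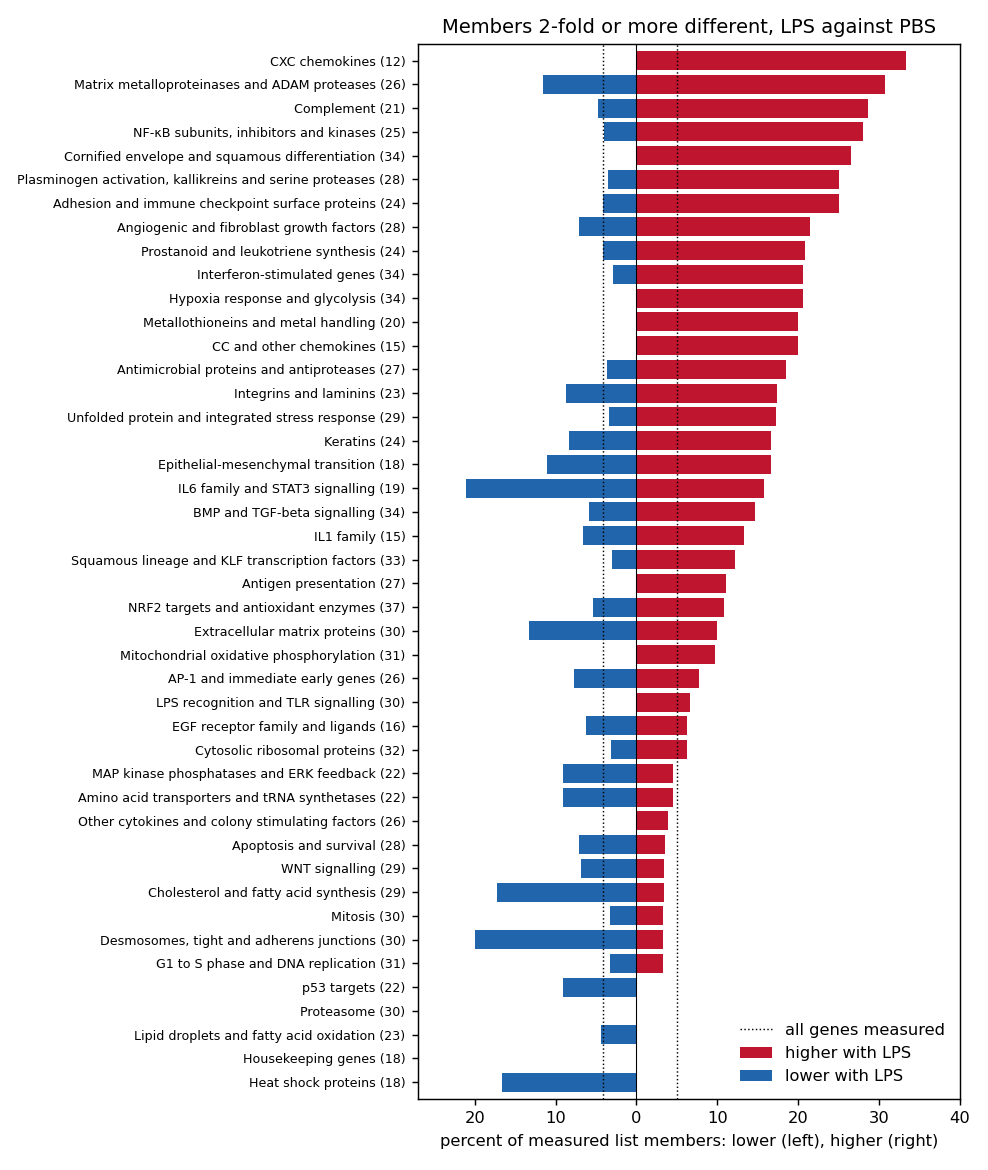
Percent of the measured members of each of 44 gene lists (vertical axis, number measured in brackets) that were at least 2-fold higher (red bars, right) or lower (blue bars, left) with LPS than with PBS, with the brighter value at the floor. Dotted lines mark all genes measured, 4.97% higher and 4.18% lower; CXC chemokines have the highest share of higher members (4 of 12), and housekeeping and proteasome genes have no bar.

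Among the largest differences outside the lists, PRDM10, a zinc finger protein, read 1739 with LPS against 72.6 with PBS, 128 with TNFα and 454 with IL1β, and TEX9, a testis-expressed gene, 1152 with LPS against 67.3 with PBS, 52.3 with TNFα and 40.5 with IL1β. TRPM1, a cation channel of retina and melanocytes, read 607 with LPS against 32.3 with PBS, 38 with TNFα and 44 with IL1β, and PRSS21, a testis serine protease, 400.0 with LPS against 31.6 with PBS, 39.7 with TNFα and 37 with IL1β. Each has 1 probe set. S100P, a calcium-binding protein, was 13.8-fold higher, the mucin MUC1 11-fold higher, with both probe sets in that direction, LILRA6, a leukocyte receptor, at least 6.48-fold, TCEA3, an elongation factor, at least 6.42-fold and CCN5, a matricellular protein, at least 4.86-fold. DGKA, a diacylglycerol kinase, read 33922 with LPS against 1619 with PBS, 34915 with TNFα and 21538 with IL1β, HMGB1, a chromatin protein and alarmin, 7207 with LPS against 679 with PBS, 5914 with TNFα and 2619 with IL1β, and EVA1C 1017 with LPS against 90.8 with PBS, 461 with TNFα and 521 with IL1β. These 3 were low on the PBS array alone. Among lower genes, MACC1 read 47.4 with LPS against 550.5 with PBS, 106 with TNFα and 73.8 with IL1β, the growth factor FGF19 42.2 with LPS against 451 with PBS, 101 with TNFα and 64.3 with IL1β and the transcription factor PROX1 40.5 with LPS against 397 with PBS, 47 with TNFα and 64.3 with IL1β. They stood above the floor on the PBS array alone. GMFG, an actin regulator of blood cells, read 69.5 with LPS against 658 with PBS, 440.3 with TNFα and 827 with IL1β, near background with LPS.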

How the data were processed

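RNA from 4 KYSE410 cultures, 1 per condition, was hybridised to NimbleGen human expression arrays. The unit is a linear intensity per probe set, normalised by RMA, which the authors deposited and which is so named per the file headers; no source used here gives the RMA software, its version or a dose. Probe set accessions were matched to RefSeq gene symbols (18866 of 45033 sets, 17185 genes), and of several sets for a gene the brightest over the 4 arrays was kept. Differences of log2 intensity, LPS minus PBS, were called at 2-fold or more with the brighter value at the floor, the median gene's mean log2 intensity. Values under 2 times the random control probes count as near background. With 1 array a side no test was possible, and precision is limited by the array number. Scripts used Python 3.11.15, pandas 2.3.3, numpy 2.4.6 and statsmodels 0.14.6, and were tested on simulated data.

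Genes were named by rule. It took the 15 largest called differences each way, with agreeing probe sets and without numbered open reading frames. It also took up to 6 called genes of each list by size and every Toll-like receptor, NF-κB, CXC and marker gene. A short list of inflammatory genes was added, together with MKI67, CDH1, KRT5 and KRT14. From these the text describes a part, and some are not reported here. ADAM10, ADAM17, CD46, DSG2, EPHB4, IFI16, IFI6, IL6ST, INHBB, LOXL2, MMP2, PLAUR, TIMP1 and VEGFA lie outside the rule and were chosen after their values were seen. Members and gene lists were chosen with earlier results of these data known. Alternatives were the floor, the fold threshold, averaged probe sets, 2 further normalisations, an offset before log2, the deposited series table and removal of markers. Promoter sequences are from RefSeq, GRCh38.p14. Probe sequences are not used here, so cross-hybridisation was not assessed, and 26167 probe sets were not matched to a gene.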

Additional observations from a re-analysis of the deposited data

Results flagged for a closer look

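Probe sets that could not be matched to a gene symbol were not part of the comparison but were measured on the same arrays. Of 26167 such sets 14042 reached the floor with PBS or LPS, and 940 of those (6.69%) were at least 2-fold higher with LPS than with PBS. At least 2-fold lower values were seen for 1629 (11.6%). Among named genes the order was the other way, with 8.83% higher and 7.42% lower. The accessions behind these sets carry no symbol in the tables used here, so the transcripts are not described. No other value was singled out, since groups of 1 array allow no search for arrays that stand apart within a group.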

How the results depend on the processing

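The counts of 854 higher and 718 lower genes depended on the floor and on the fold threshold. With no floor they were 1445 and 1262, and with the floor at the 75th percentile 399 and 297. At 1.5-fold they were 2025 and 1710, and at 3-fold 297 and 206. Under the other alternatives they stayed within 1.5 times: 836 and 696 with averaged probe sets, 819 and 761 after loess centring, 916 and 648 after repeated quantile normalisation, 683 and 551 with an offset before log2, 850 and 690 without the markers of other cell types, and 854 and 718 from the deposited series table. All 234 called genes covered by the naming rule kept their sign under each alternative run. The sign could not change where only the floor or the threshold changed, or with the deposited series table, which holds the same values. Averaging could not change it for genes with 1 probe set or genes picked for agreeing sets. Of the 234 genes 225 were still called with averaged probe sets, 231 after loess, 229 after quantile normalisation, 213 with the offset, 145 at the higher floor and 139 at 3-fold. Averaging ended the calls of ATP2A2, BMP1, NRP2, PSMB8 and SULT2B1, and the offset those of NFKBIE, JUNB, ERBB3, SLCO2A1 and HMGCS1. The cause of each lost call was not tested. Marker sums without 1 gene, given with the markers, were added after seeing the data. No paired analysis was possible because each group has 1 array. Without replicates no difference can be set against its error, and probe sets near background limit the size of a fold.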

Other observations

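The genes below belong to no list and were chosen after their values were seen, so they are given as values only. EDN2, the vasoconstrictor endothelin 2, read 3160.4 with LPS against 351 with PBS, 1031 with TNFα and 768 with IL1β. FOLR1, a folate receptor, read 4599 with LPS against 496 with PBS, 182 with TNFα and 202 with IL1β. CEBPD, a transcription factor of the acute phase response, read 1589.7 with LPS against 183 with PBS, 396 with TNFα and 233 with IL1β. CXCR4, the receptor of CXCL12, read 1235 with LPS against 185 with PBS, 454 with TNFα and 734 with IL1β. IFNGR1, a subunit of the interferon γ receptor, read 2009 with LPS against 213 with PBS, 613 with TNFα and 591 with IL1β.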
